A study of Homo sapiens with 2 samples.

Results

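The cells described here were HCT116 cells that had been treated with decitabine (DAC) and had 2 or more UMIs of *SFRP1*. There were 80 such cells among 1751 DAC-treated cells (4.57%, 95% confidence interval 3.64 to 5.65%), out of 3534 cells in both libraries. A UMI (unique molecular identifier) marks 1 captured transcript molecule. These SFRP1-positive cells were compared with 1087 DAC-treated cells that had 10000 or more UMIs and no UMI of *SFRP1*, called SFRP1-zero cells. Both groups were selected on *SFRP1*, so its level is given only as a description of them.

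HCT116 derives from a human colon carcinoma, and DAC is a cytidine analog that traps DNA methyltransferases, so that DNA methylation is lost while cells divide. DAC was dosed at 0.5 μM on day 1 after seeding and once more on day 3, and ended with a change of medium on day 5. Cells were taken for sequencing on day 7, and mock-treated cells had no DAC. From each condition, 1 droplet library of single cells was prepared. A DAC-treated cell had 35340 UMIs at the median, and a mock-treated cell had 27899. All SFRP1-positive cells came from 1 library, in which cells do not stand for separate cultures, so the comparisons carry no p-values. Intervals of shares of cells (Clopper-Pearson) and of ratios of UMI sums (exact conditional) are at the 95% level and cover counting error only.

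*SFRP1* encodes a secreted protein that binds WNT ligands outside the cell and keeps them from Frizzled receptors. In colon cancers the gene is often silent, with a methylated promoter, and WNT signaling is active through stabilized β-catenin, which switches on targets such as *AXIN2*, *MYC*, and *LGR5*. HCT116 cells carry an activating mutation of the β-catenin gene itself, downstream of the step at which *SFRP1* acts.

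The genes that stood out beside *SFRP1* in these cells included germline genes of the X chromosome as well as autosomal genes. Of the 8 reactivated genes with the highest ratios, the promoters of the 4 X-linked genes and of the autosomal gene with the most CGs are printed, since CG is the site of DNA methylation. Each sequence is the 250 bases before the annotated start in the RefSeq table of GRCh38.p14, read along the strand of the gene, with every CG in capitals. *RHOXF1* (chrX:120115914-120116163, minus strand) encodes a homeobox protein of germ cells, and its promoter had 2 CGs. *MAGEA11* (chrX:149711810-149712059, plus strand) encodes a cancer-testis antigen, and its promoter had 18 CGs. *VCX3B* (chrX:8464580-8464829, plus strand) and *VCX3A* (chrX:6535119-6535368, minus strand) are near-identical copies expressed in male germ cells. *RAB32* (chr6:146543583-146543832, plus strand) encodes a small GTPase of organelle transport.
RHOXF1: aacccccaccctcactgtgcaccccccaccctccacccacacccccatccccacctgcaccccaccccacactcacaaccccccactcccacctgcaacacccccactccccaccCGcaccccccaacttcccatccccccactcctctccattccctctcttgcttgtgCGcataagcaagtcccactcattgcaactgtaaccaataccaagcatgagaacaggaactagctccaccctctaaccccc
MAGEA11: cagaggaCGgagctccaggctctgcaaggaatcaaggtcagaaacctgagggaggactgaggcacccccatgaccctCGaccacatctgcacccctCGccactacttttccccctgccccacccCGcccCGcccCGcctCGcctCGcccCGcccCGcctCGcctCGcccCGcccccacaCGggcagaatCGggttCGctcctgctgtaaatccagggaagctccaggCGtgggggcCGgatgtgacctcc
VCX3B: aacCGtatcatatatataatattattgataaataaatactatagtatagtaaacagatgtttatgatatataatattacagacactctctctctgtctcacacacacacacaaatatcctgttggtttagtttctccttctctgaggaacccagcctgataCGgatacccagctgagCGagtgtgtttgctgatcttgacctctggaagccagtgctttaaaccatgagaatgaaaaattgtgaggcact
VCX3A: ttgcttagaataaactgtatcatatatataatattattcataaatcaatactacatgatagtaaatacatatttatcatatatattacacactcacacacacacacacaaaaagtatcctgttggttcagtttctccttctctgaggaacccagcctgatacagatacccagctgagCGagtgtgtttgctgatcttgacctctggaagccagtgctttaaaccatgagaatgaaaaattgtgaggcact
RAB32: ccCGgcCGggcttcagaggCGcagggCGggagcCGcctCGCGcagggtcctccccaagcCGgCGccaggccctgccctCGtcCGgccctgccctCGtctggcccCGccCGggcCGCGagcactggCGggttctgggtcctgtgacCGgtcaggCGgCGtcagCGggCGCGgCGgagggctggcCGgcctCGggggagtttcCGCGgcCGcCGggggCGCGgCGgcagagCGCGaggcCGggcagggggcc
The promoter of *VCX3B* had 3 CGs, that of *VCX3A* had 1 CG, and that of *RAB32* had 36 CGs. Of the other 3, *NNT-AS1* had 28 CGs, *FILIP1* had 6 CGs, and *BARX1* was not in the table. The median over 27305 promoters of the table was 11 CGs. As many CGs or more were present in 84.6% of the promoters for *RHOXF1*, in 36.5% for *MAGEA11*, in 76.4% for *VCX3B*, in 93.6% for *VCX3A*, and in 4.73% for *RAB32*. The 87 bases just before the start were identical in *VCX3A* and *VCX3B*. The counts describe these letters only, since methylation was not measured in these cells. Of the 199 reactivated genes described further on, 136 were in the table, and CG counts were not compared over the whole set.

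*SFRP1* (ENSG00000104332, chromosome 8 of hg38 from 41261962 to 41309473, minus strand) had 525 UMIs in the DAC-treated library and 0 UMIs in the mock-treated library. The absence in 1783 mock-treated cells allows a share of up to 0.207% of cells with a UMI. The SFRP1-positive cells held 389 of the 525 UMIs, and had 3 UMIs each at the median (quartiles 2 and 5), up to 37 in 1 cell. Just inside the threshold were 35 cells with 2 UMIs, and just outside it were 136 cells with 1 UMI, 126 of which had 10000 or more UMIs in total. Another 17 cells had 3 UMIs. *SFRP1* was therefore near the threshold in many of these cells, and a single UMI decided their group.

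*SFRP1* was unevenly spread over cells. The 7 cells with 10 or more UMIs held 157 UMIs, or 29.9% of all *SFRP1* UMIs. If every DAC-treated cell had taken an equal share of its UMIs from *SFRP1*, 86.9 cells would have had 2 or more UMIs, and 80 cells did. By the same measure 14.2 cells would have had 3 or more UMIs, and 45 cells did. These counts, on which the cells were chosen, are a description only. The number of SFRP1-positive cells was no larger than an even share gives, while the number with 3 or more UMIs was. A cell with 2 UMIs cannot be told apart from one that drew 2 copies of an evenly spread transcript. The share of free RNA from other cells in these UMIs was not tested. In the plot of *SFRP1* against total UMIs, the 7 cells stand apart from the rest.

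**Figure D1:**
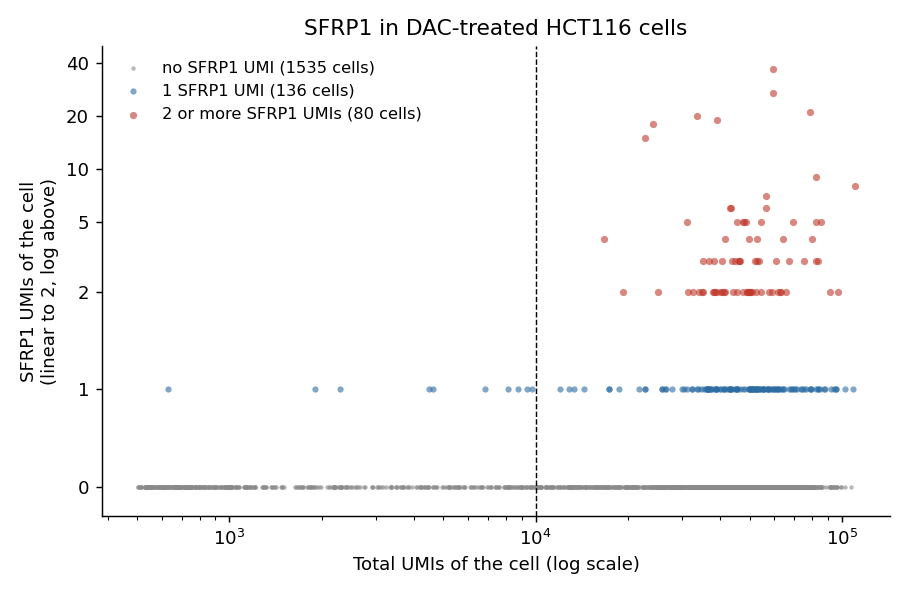
Each point is 1 DAC-treated cell, with its total UMIs on a log scale on the horizontal axis and its SFRP1 UMIs on the vertical axis. The dashed line marks 10000 UMIs. All 80 cells with 2 or more SFRP1 UMIs lie to its right, and 7 cells have 10 or more.

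All 80 SFRP1-positive cells had 10000 or more UMIs, and 458 of the DAC-treated cells and 395 of the mock-treated cells had fewer and were left out of the comparison. SFRP1-positive cells were the deeper group, with a median of 48792 UMIs (quartiles 40092 and 59548) against 42952 UMIs (29230 and 56538) in SFRP1-zero cells. The 2 groups were therefore compared after 10000 UMIs had been drawn at random from each cell. At this depth, 46 of the 80 SFRP1-positive cells still had a UMI of *SFRP1*, and a median of 3105.5 genes was detected per SFRP1-positive cell, against 2997 per SFRP1-zero cell and 2756.5 per mock-treated cell.

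The quality of the cells also differed. Mitochondrial genes took a median of 17.2% of the UMIs of an SFRP1-positive cell and 19.3% of those of an SFRP1-zero cell, and their mean shares were 19.4% and 26.6%. Because a fixed number of UMIs was drawn, a smaller mitochondrial share leaves more UMIs for all other genes. Over 5561 genes that averaged at least 0.2 UMI per DAC-treated cell, the median ratio of UMIs per SFRP1-positive cell to UMIs per SFRP1-zero cell was 1.10, which is 0.13 on the log2 scale. Ratios are given as measured, and for the main gene lists also divided by this median gene. Ribosomal protein genes were at the median gene, with a ratio of 1.10, and housekeeping genes were close to it, with 1.09 (1.06 to 1.11). The part of depth and of mitochondrial share in each result was not tested beyond the alternatives given with it. None of the 12 barcodes found in both libraries belonged to an SFRP1-positive cell, and 3 belonged to SFRP1-zero cells.

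SFRP1-positive cells were epithelial cells of the line by their markers. All 13 colon epithelial markers had UMIs in them, with a summed 73.9 UMIs per cell against 77.8 in SFRP1-zero cells. The ratio was 0.950 (0.925 to 0.975), or 0.866 when divided by the median gene. *KRT18*, *KRT8*, and *KRT19*, which encode keratins of simple epithelia, were the most abundant, with 38.4, 16.9, and 13.3 UMIs per SFRP1-positive cell. Markers of other cell types were near 0. The 11 fibroblast markers had 0.438 UMI per SFRP1-positive cell and 0.299 UMI per SFRP1-zero cell (ratio 1.46, 1.00 to 2.08). *COL1A1* was the most abundant of them, and *COL1A2*, *COL3A1*, *DCN*, and *PDGFRA* were among 7 markers without a UMI. The 8 immune markers had 10 UMIs over the 80 cells, 7 of them from *CD3D*, and none from *PTPRC*, the common leukocyte antigen. The 4 endothelial markers had 2 UMIs. *SFRP1* UMIs therefore did not mark a second cell type among the markers examined.

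The first comparison asked whether WNT target genes were lower in cells with UMIs of this WNT antagonist. They were close to the median gene. The protein is secreted and both groups came from 1 library, so an effect shared by all its cells would not show here. Summed over 30 target genes, SFRP1-positive cells had 22.4 UMIs per cell, SFRP1-zero cells had 20.7, and mock-treated cells had 14.3. The ratio of SFRP1-positive to SFRP1-zero cells was 1.08 (1.03 to 1.14), or 0.987 when divided by the median gene, and without thinning, with every cell scaled to 10000 UMIs, it was 1.11. The direction depended on how mitochondrial UMIs were handled. The ratio was 0.985 per non-mitochondrial UMI, 0.994 without cells over 50% mitochondrial UMIs, and 1.04 without those over 20%. The median WNT target UMIs per cell were 22 and 19. *CCND1* alone gave 939 of the 1789 UMIs. After its value had been seen, the sum was also taken without it, which gave a ratio of 1.18 (1.10 to 1.26), without *DKK1*, which gave 1.04 (0.985 to 1.09), and without both, which gave 1.09 (0.999 to 1.18). The sum thus rose without *CCND1* alone and fell without *DKK1* alone. With both genes and without both it was close to the median gene.

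A gene was counted as higher or lower when its ratio was at least 1.5 in either direction, among genes that averaged at least 0.2 UMI. Over all 5561 of them, 263 (4.73%) were higher and 104 (1.87%) lower in SFRP1-positive cells. With the fold taken from the median gene the balance turned, to 98 higher and 207 lower. Of the 30 WNT targets, 22 had a UMI in SFRP1-positive cells and 11 reached the mean, of which 1 was higher, 0 were lower, and 6 had a ratio above 1. The median over these 11 genes was 1.01, against 1.10 over all tested genes. The single target past the limit was *DKK1*, which was at 1.44 without thinning, where *SOX4* (1.51) and *NOTUM* (1.60) were past it.

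The most abundant targets went in different directions. *CCND1*, which encodes cyclin D1, was level, with 11.7 UMIs per SFRP1-positive cell and 11.6 per SFRP1-zero cell (ratio 1.01, 0.943 to 1.08). *DKK1*, a target that encodes a secreted antagonist of the WNT coreceptors, had 2.84 and 1.85 UMIs per cell (1.53, 1.33 to 1.76). *SOX4*, a transcription factor of progenitor cells, had 1.32 and 0.910 UMIs per cell (1.46, 1.18 to 1.78). *SOX9*, a transcription factor of crypt base cells, had a ratio of 1.31 (1.06 to 1.61). *BMP4*, which encodes a bone morphogenetic protein, was level (0.989, 0.785 to 1.23), as was the ion transporter gene *SLC12A2* (1.14, 0.819 to 1.54). Below 1 were the cell surface glycoprotein *CD44* (0.868, 0.681 to 1.09), the growth regulator *MYC* (0.845, 0.620 to 1.13), and *RNF43*, a ubiquitin ligase that removes Frizzled receptors (0.838, 0.613 to 1.12), and the interval of each included 1. The transcription factor gene *ETS2* was at 0.835 (0.460 to 1.41), and at 1.12 without thinning.

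Several other targets were sparse. *AXIN2*, a scaffold of β-catenin degradation, had 11 UMIs in SFRP1-positive cells and a ratio of 1.36 (0.659 to 2.53). *NKD1* had 13 UMIs and a ratio of 1.45 (0.749 to 2.57), and *NOTUM*, which removes the lipid from WNT proteins, had 23 UMIs and a ratio of 1.44 (0.894 to 2.22). *TCF7*, a transcription factor that binds β-catenin, had a ratio of 1.62 (0.952 to 2.62). All 4 intervals included 1, so a difference was not detectable at this depth. *ZNRF3*, which acts as *RNF43* does, and *NKD2*, a relative of *NKD1*, had 8 and 4 UMIs, with ratios of 0.997 (0.420 to 2.04) and 0.988 (0.260 to 2.68), and were picked after their values had been seen. Without thinning, *AXIN2* was at 1.42, *NKD1* at 1.49, *NOTUM* at 1.60, *TCF7* at 1.54, *ZNRF3* at 1.26, and *NKD2* at 1.60. Without thinning, 78.2% of all tested genes were above 1, so this direction was the common one. A ratio of 1.5 or more was rarer, at 1.56% of all tested genes. *NOTUM*, *TCF7*, and *NKD2* reached it, but *TCF7* and *NKD2* averaged too few UMIs to be among the tested genes. *LGR5*, *LEF1*, and *APCDD1* were among the 8 targets without a UMI in SFRP1-positive cells after thinning.

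**Figure D2:**
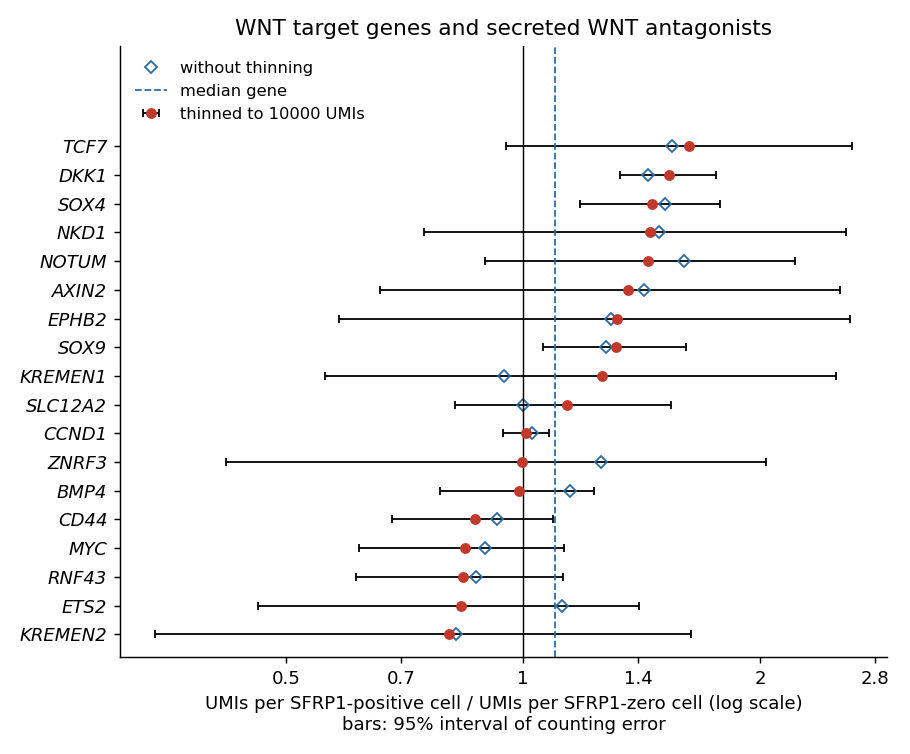
Ratio of UMIs per SFRP1-positive cell to UMIs per SFRP1-zero cell on a log scale, for the WNT target genes and secreted WNT antagonists with 100 or more UMIs over both groups. Filled points with bars are thinned counts with 95% intervals of counting error, open diamonds are values without thinning, the solid line is a ratio of 1, and the dashed line is the median gene at 1.10. The genes lie on both sides of the median gene, with DKK1 and SOX4 above it and CD44, MYC, and RNF43 below.

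Most other secreted WNT antagonists had few or no UMIs in either group. Of 19 listed antagonists other than *SFRP1*, 8 had a UMI in SFRP1-positive cells, among them *KREMEN1* and *KREMEN2*, which are not secreted. Before thinning, SFRP1-zero cells had 3 UMIs of *SFRP5*, 9 of *WIF1*, and 15 of *DKK3*, and SFRP1-positive cells had none of these. After thinning, *SFRP4*, *SFRP5*, and *DKK2* had none in either group, and *WIF1* and *DKK3* had 3 and 5 UMIs in SFRP1-zero cells only. *SFRP2* had 1 UMI in SFRP1-positive cells and 2 in SFRP1-zero cells, too few for a comparison. Together the 19 genes had 3.42 UMIs per SFRP1-positive cell and 2.38 per SFRP1-zero cell (1.44, 1.26 to 1.63), 1.31 when divided by the median gene. *DKK1* gave 227 of the 274 UMIs and *NOTUM* 23, and both are also on the list of targets. The ratio was that of *DKK1*, since without it the sum was at 1.11, and without both at 0.913 (0.578 to 1.38), sums made after the values had been seen. *KREMEN1* and *KREMEN2*, transmembrane receptors of *DKK1*, had 9 and 8 UMIs, with ratios of 1.26 (0.560 to 2.49) and 0.805 (0.341 to 1.63). *DKK4* had 1 UMI in SFRP1-positive and 32 in SFRP1-zero cells, *IGFBP4* 2 and 31, and *TRABD2A* 3 and 31.

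The ligands, receptors, and intracellular parts of the pathway had ratios slightly above the median gene. The interval of the ligands and receptors included the median gene. The 36 WNT ligands and receptors had 2.06 UMIs per SFRP1-positive cell and 1.68 per SFRP1-zero cell (1.22, 1.04 to 1.44), of which *RYK*, a receptor-like kinase, was the most abundant, with 27 UMIs. *LRP6* and *LRP5*, the coreceptors of Frizzled, had ratios of 0.952 (0.555 to 1.53) and 1.24 (0.695 to 2.07). The 23 genes of signal transduction had a ratio of 1.19 (1.10 to 1.28), and 2 of 14 tested were higher and 0 lower, against 4.73% and 1.87% of all tested genes. The 2 were *DVL3* (1.63, 1.09 to 2.35) and *DVL2* (1.58, 1.00 to 2.40), scaffolds that relay the signal of Frizzled, and they were at 1.22 and 1.24 without thinning. The most abundant of them were *CSNK1A1*, a kinase of the β-catenin degradation complex (1.21, 1.01 to 1.44), *TCF7L2*, the main β-catenin partner in the colon (0.831, 0.619 to 1.09), and *CTNNB1*, the β-catenin gene (1.22, 0.937 to 1.56). Relative to the median gene the ligands and receptors were at 1.12 and signal transduction at 1.08.

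The second comparison asked whether *SFRP1* was reactivated alone or together with other genes. SFRP1-positive cells had more UMIs of other reactivated genes than SFRP1-zero cells. Reactivated genes were taken from those that never exceeded 2 UMIs in a mock-treated cell and averaged more UMIs after DAC, and the 200 most abundant in DAC-treated cells were kept. *SFRP1* had rank 151 and was left out, so that 199 genes were used. At 10000 UMIs, a median of 30 of these genes (quartiles 25 and 37, range 15 to 59) was detected in an SFRP1-positive cell and 23 (18 and 29, range 2 to 59) in an SFRP1-zero cell. A mock-treated cell had a median of 2, which the choice of the genes requires to be low. The ranges overlapped widely, and the lower end of the distribution was the part that SFRP1-positive cells lacked.

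In UMIs, SFRP1-positive cells had 57.0 of the 199 genes per cell and SFRP1-zero cells had 40.9 (1.39, 1.35 to 1.44), 1.27 when divided by the median gene and 1.41 without thinning. Without thinning, a median of 76 reactivated genes was detected in an SFRP1-positive cell and 59 in an SFRP1-zero cell. Of the SFRP1-positive cells, 38 (47.5%, 36.2 to 59.0%) were above the upper quartile of the SFRP1-zero cells, against 24.7% of the SFRP1-zero cells themselves, and 4 (5.00%, 1.38 to 12.3%) were below their lower quartile. Of the 56 reactivated genes that reached the mean of 0.2 UMI, 21 were higher and 0 lower, against 4.73% and 1.87% of all tested genes. Their median ratio was 1.36, against 1.10 over all tested genes. Scaling every cell to 10000 UMIs without thinning gave 87 genes higher (1.56%) and 8 lower (0.144%) among the 5561, and 23 of the 87 were reactivated genes. The other 143 reactivated genes did not reach the mean. Over all 199, the share of cells with a UMI was larger in SFRP1-positive cells for 152 genes (76.4%) and smaller for 47. Among 8795 other genes in the same range of mean UMIs, it was larger for 63.6%, so part of this count is general to the comparison.

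The relation was also seen from the side of the reactivated genes, as the same association read in the other direction. DAC-treated cells with 10000 or more UMIs were ordered by the number of reactivated genes detected after thinning. Among 388 cells with up to 19 such genes, 7 were SFRP1-positive (1.80%, 0.728 to 3.68%). The share was 3.83% of 313 cells with 20 to 24 genes, 8.19% of 293 cells with 25 to 30 genes, and 12.4% (8.86 to 16.7%) of 299 cells with 31 or more. The share rose at each step, and so did the median total UMIs over the first 3 steps, which were 35346, 45338, and 47836, while the fourth was 47353. Median mitochondrial shares of the 4 groups were 23.3%, 17.7%, 18.3%, and 18.5%, so that the first group also differed in quality.

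Among the SFRP1-positive cells themselves, more *SFRP1* did not go with more reactivated genes. The median number detected was 25 in the 126 cells with 1 *SFRP1* UMI, just outside the threshold, and 31 in the 35 cells with 2 UMIs. It was 27 in 23 cells with 3 or 4 UMIs, 33 in 15 cells with 5 to 9, and 29 in the 7 cells with 10 or more. The difference between the groups was therefore already present at 2 UMIs and had no further gradient. With 3 or more UMIs, the difference of medians from SFRP1-zero cells was 4 genes, against 7 genes with 2 or more. The 7 cells with the most *SFRP1* had between 26 and 38 reactivated genes, a range that lay within that of the other SFRP1-positive cells.

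**Figure D3:**
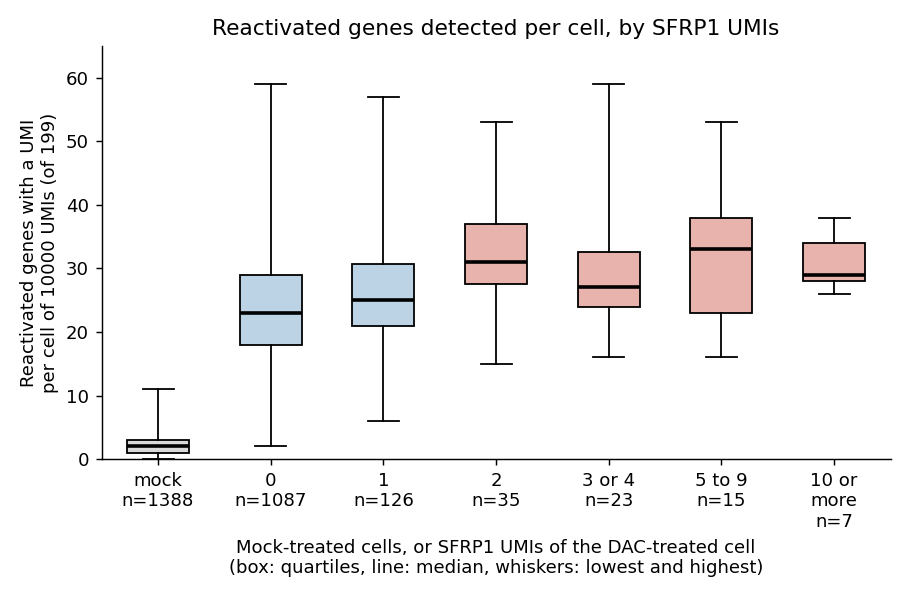
Number of 199 reactivated genes with a UMI per cell at 10000 UMIs, for mock-treated cells and for DAC-treated cells by their SFRP1 UMIs before thinning. Boxes span the quartiles, the line is the median, and whiskers reach the lowest and the highest cell. Medians are 2 in mock-treated cells, 23 with no SFRP1 UMI, 25 with 1, and between 27 and 33 with 2 or more.

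In UMIs, the X chromosome carried much of this difference, a split that was made after the values had been seen. By genes detected per cell, both classes differed, with the larger gap for the autosomal genes. SFRP1-positive and SFRP1-zero cells had medians of 5 and 2 X-linked reactivated genes, and of 25 and 20 autosomal ones. The 29 X-linked reactivated genes, mostly cancer-testis genes that are normally expressed in germ cells, had 18.8 UMIs per SFRP1-positive cell and 9.84 per SFRP1-zero cell (1.91, 1.81 to 2.01). The 170 autosomal genes had 38.2 and 31.1 UMIs per cell (1.23, 1.19 to 1.28), and the latter ratio fell to between 1.12 and 1.17 under 4 alternatives. Divided by the median gene, these ratios were 1.74 and 1.12. Of the 16 X-linked genes that reached the mean, 11 were higher and 0 lower, and of the 40 autosomal genes 10 were higher and 0 lower. Of all tested genes, 4.73% were higher and 1.87% lower. Without thinning, 27 of the 29 X-linked genes and 127 of the 170 autosomal genes had a ratio above 1 (93.1% and 74.7%), as did 70.8% of the 8795 other genes in the same range of mean UMIs. Other genes of the X chromosome had a ratio of 1.15 (1.13 to 1.17), or 1.05 when divided by the median gene.

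Over cells, X-linked reactivation was uneven. SFRP1-positive cells had a median of 9 UMIs of the X-linked genes and SFRP1-zero cells had 3. Above 12 UMIs, the upper quartile of SFRP1-zero cells, were 43.8% of SFRP1-positive cells (32.7 to 55.3%) and 24.3% of SFRP1-zero cells (21.8 to 26.9%). The 5 SFRP1-positive cells with the most X-linked UMIs held 33.1% of them, and without these 5 cells, but with all SFRP1-zero cells, the ratio was 1.36. A few cells with very many transcripts and a broader rise in detection thus both entered the ratio of 1.91. It was lower under several other choices of cells, at 1.49 without cells over 20% mitochondrial UMIs, 1.56 with 1 or more *SFRP1* UMIs, and 1.57 with 3 or more.

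**Figure D4:**
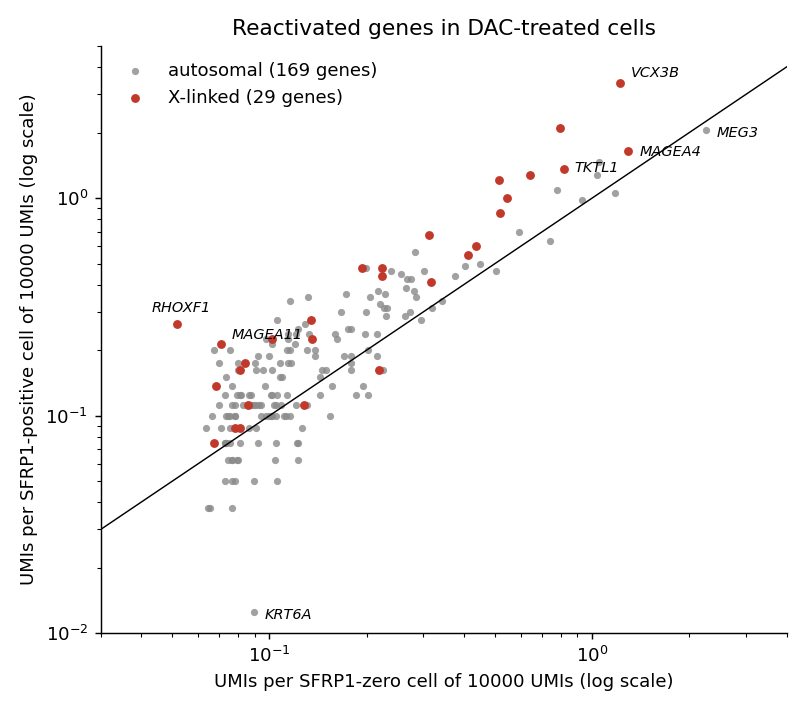
Each point is 1 reactivated gene, with its UMIs per SFRP1-zero cell on the horizontal axis and per SFRP1-positive cell on the vertical axis, both at 10000 UMIs and on log scales. The line marks equal values, red points are the 29 X-linked genes, grey points are autosomal genes, and H3.Y with 0 UMIs in SFRP1-positive cells is not drawn. X-linked genes lie above the line with few exceptions, and autosomal genes lie on both sides.

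The single genes with the highest ratios included X-linked and autosomal ones. *RHOXF1* was detected in 13.8% of SFRP1-positive cells and 3.68% of SFRP1-zero cells, with 0.263 and 0.0515 UMI per cell (5.10, 2.93 to 8.55), and 4.87 without thinning. *MAGEA11* had a ratio of 3.00 (1.66 to 5.12). *BARX1*, a homeobox gene of stomach and jaw development, was at 2.66 (1.71 to 4.01) and at 2.77 without thinning. *RAB32* was at 2.65 (1.45 to 4.57), the filamin-binding protein gene *FILIP1* at 2.91 (1.85 to 4.44), and the antisense RNA *NNT-AS1* at 2.98 (1.62 to 5.17). Without thinning these 3 came to 1.84, 2.07, and 1.92. These genes were picked for their ratios, so a smaller value on another scale is what such a choice gives.

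*VCX3B* and *VCX3A* had the most UMIs of the 8 genes. *VCX3B* had 3.39 UMIs per SFRP1-positive cell and 1.22 per SFRP1-zero cell (2.79, 2.44 to 3.18), and *VCX3A* had 2.10 and 0.795 (2.64, 2.23 to 3.12). Reads of these near-identical copies may be split between them, so their separate values are uncertain. Summed over 4 *VCX* genes, the ratio was 2.68 (2.42 to 2.96). A *VCX* transcript was detected in 23.8% of SFRP1-positive cells (14.9 to 34.6%) and 18.9% of SFRP1-zero cells (16.6 to 21.3%), and in 0 mock-treated cells. Without thinning, *VCX3B* had 2 or more UMIs in 22.5% of SFRP1-positive cells (13.9 to 33.2%) and 13.5% of SFRP1-zero cells (11.5 to 15.7%). In 1 SFRP1-positive cell there were 91 *VCX* UMIs, and without it the ratio was 2.19.

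Other multicopy cancer-testis families were higher too, and their single members carry the same uncertainty. The 13 GAGE genes had a summed ratio of 2.08 (1.82 to 2.35) and were detected in 40 of the SFRP1-positive cells and 34.8% of SFRP1-zero cells. The 6 PAGE genes had a ratio of 1.84 (1.60 to 2.11), with detection in 48.8% and 33.9%. The 12 MAGEA genes had a ratio of 1.47 (1.31 to 1.64), with detection in 82.5% and 73.1%, but also in 41.7% of mock-treated cells. These 4 families were picked after the values had been seen. The list of 50 cancer-testis genes had 20.4 UMIs per SFRP1-positive cell and 11.5 per SFRP1-zero cell (1.77, 1.68 to 1.86). On this list 9 of 16 tested genes were higher and 0 lower, against 4.73% and 1.87% of all tested genes. *MAGEA4*, with 132 UMIs, and *MAGEB2*, with 95 UMIs and detected in mock-treated cells as well, had ratios of 1.27 (1.06 to 1.52) and 1.15 (0.923 to 1.42).

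At the other end, few reactivated genes were lower in SFRP1-positive cells by more than the drawing of UMIs. *H3.Y*, a primate-specific histone gene, had 0 UMIs in the 80 SFRP1-positive cells and 248 in SFRP1-zero cells, where 17 cells (1.56%) held them. Before thinning, it had 3 UMIs in 3 SFRP1-positive cells and 892 UMIs in 40 SFRP1-zero cells. A gene this concentrated can be missing from 80 cells, and 1.56% of 80 is close to a single cell. The keratin gene *KRT6A* had 1 UMI and a ratio of 0.140 (0.00351 to 0.799), and 0.578 without thinning. The 6 others with the lowest ratios, *RPL10L*, *FNIP2*, *MAP3K6*, *ZFP57*, *TMEM88*, and *PCDH9*, were between 0.473 and 0.582, and each interval included 1. Without thinning, *RPL10L*, *FNIP2*, and *ZFP57* were above 1. *MEG3*, the reactivated gene with the highest mean, was level, with 2.05 and 2.26 UMIs per cell (0.909, 0.771 to 1.06).

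Tumor suppressor genes known to be silenced by methylation in colon cancer were also examined, since *SFRP1* is one of them. The other 36 genes of that list had 4.91 UMIs per SFRP1-positive cell and 3.65 per SFRP1-zero cell (1.35, 1.21 to 1.49), 1.23 when divided by the median gene. *SPARC*, which encodes a matrix protein, was higher, with 1.29 and 0.764 UMIs per cell (1.69, 1.36 to 2.07), while *UCHL1*, a deubiquitinase gene (1.05, 0.821 to 1.32), and *CDKN2A*, which encodes the cell cycle inhibitor p16 (1.18, 0.917 to 1.51), were near the median gene. Of 6 tested genes, 2 were higher and 0 lower, against 4.73% and 1.87% of all tested genes. Before thinning, 2 or more UMIs of *FBLN2* were present in 8 SFRP1-positive cells (10.0%, 4.42 to 18.8%) and 5.06% of SFRP1-zero cells, of *CHFR* in 3 cells (3.75%) and 2.48%, and of *ICAM4* in 1 cell (1.25%) and 2.67%. All 3 intervals of SFRP1-positive cells included the share of SFRP1-zero cells.

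The third comparison was of the cell cycle. Relative to the median gene, transcripts of S phase were slightly lower and those of G2 and mitosis slightly higher in SFRP1-positive cells. The 43 S-phase genes had 26.1 UMIs per SFRP1-positive cell and 25.4 per SFRP1-zero cell (1.03, 0.983 to 1.07), and the 54 G2/M genes had 77.8 and 67.4 (1.15, 1.13 to 1.19). Divided by the median gene, the ratios were 0.937 and 1.05. Mock-treated cells had 11.3 S-phase and 31.8 G2/M UMIs per cell, so both DAC-treated groups were far above them.

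Of 51 tested G2/M genes, 42 had a ratio above 1, 2 were higher, and 0 lower, with a median ratio of 1.16. Over all tested genes 3894 of 5561 had a ratio above 1, and the share of higher genes was 4.73%, so the list had no excess of higher genes. *JPT1* (1.12, 1.05 to 1.19), the tubulin gene *TUBB4B* (1.23, 1.13 to 1.32), and *MKI67*, which encodes the proliferation antigen Ki-67 (1.06, 0.935 to 1.19), were the most abundant. Of 32 tested S-phase genes, 17 had a ratio above 1, 0 were higher and 2 lower, with a median of 1.01. The share of lower genes over all tested genes was 1.87%. *NASP*, a histone chaperone gene (1.20, 1.05 to 1.36), *TYMS*, which encodes thymidylate synthase (1.10, 0.939 to 1.28), and the replication clamp gene *PCNA* (1.01, 0.843 to 1.20) were the most abundant.

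Over cells, 27 SFRP1-positive cells (33.8%, 23.6 to 45.2%) were above the upper quartile of SFRP1-zero cells in G2/M UMIs, against 24.4% of SFRP1-zero cells, a share within the interval. Cells below the median of SFRP1-zero cells in both S-phase and G2/M UMIs made up 30.0% (20.3 to 41.3%) of SFRP1-positive cells and 40.2% (37.3 to 43.2%) of SFRP1-zero cells. A difference in the share of cells in a phase was thus not detectable with 80 cells. The 10 cell cycle inhibitors had a ratio of 1.13 (1.02 to 1.26), with *CDKN1A*, which encodes p21, at 0.979 (0.821 to 1.16), *CDKN2A* at the value given above, and *CDKN2D* at 1.34 (1.00 to 1.75). Weighting SFRP1-zero cells to the depth of the SFRP1-positive cells brought the G2/M ratio to 1.06. The same weighting also lowered S-phase genes, to 0.977, and WNT targets, to 1.04. A link of depth with G2/M genes in particular was not tested.

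**Figure D5:**
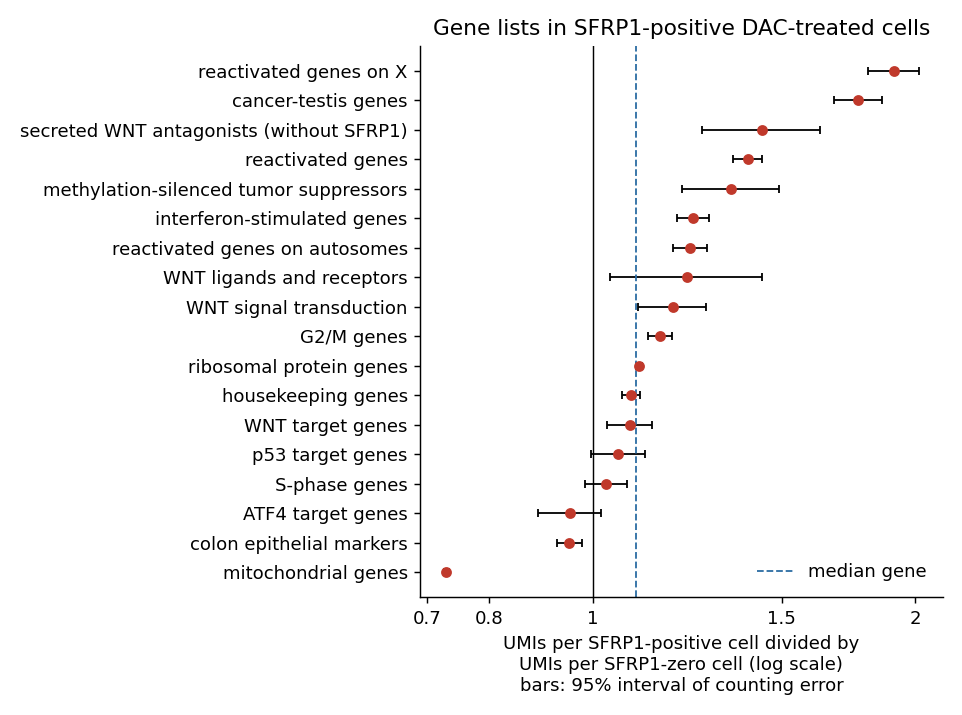
Ratio of summed UMIs per SFRP1-positive cell to those per SFRP1-zero cell for gene lists, on a log scale, with bars for the 95% interval of counting error. The solid line is a ratio of 1 and the dashed line is the median gene at 1.10. X-linked reactivated and cancer-testis genes are highest, WNT targets, S-phase, housekeeping, and ribosomal protein genes lie near the median gene, and mitochondrial genes are lowest at 0.729.

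Interferon-stimulated genes, the antiviral genes that DAC induces in many cells, were modestly higher in SFRP1-positive cells. The 40 genes had 45.6 UMIs per SFRP1-positive cell, 36.8 per SFRP1-zero cell, and 8.99 per mock-treated cell, and the ratio of the DAC-treated groups was 1.24 (1.20 to 1.28), 1.13 when divided by the median gene. *ISG15*, a ubiquitin-like modifier (1.22, 1.15 to 1.29), *IFI27* (1.35, 1.25 to 1.44), and *IFI6* (1.19, 1.08 to 1.31) were the most abundant. Of 19 tested genes 6 were higher and 0 lower, against 4.73% and 1.87% of all tested genes. Their median ratio was 1.33, against 1.10 over all tested genes. *MX1*, a GTPase that blocks viruses and also a reactivated gene, was at 1.71 (1.11 to 2.53), and at 2.12 without thinning, and was chosen after its value had been seen. The 10 endogenous retrovirus loci had 32 UMIs in SFRP1-positive cells and a ratio of 1.38 (0.925 to 1.98), with most of the UMIs from *ERVK3-1*, *ERVMER34-1*, and *ERV3-1*. Without thinning, the ratio of these loci was 1.07.

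Lists of other programs were at or below the median gene. The 26 p53 target genes had a ratio of 1.06 (0.995 to 1.12), and their most abundant genes *GDF15*, a stress cytokine (0.940, 0.814 to 1.08), and *CDKN1A* were below 1, while *BAX*, a mediator of apoptosis, was at 1.19 (0.968 to 1.45). The 23 ATF4 target genes, which respond to amino acid stress, were at 0.951 (0.889 to 1.02), with the amino acid transporter genes *SLC3A2* at 0.818 (0.704 to 0.947) and *SLC7A5* at 0.787 (0.616 to 0.992), and the mitochondrial folate enzyme gene *MTHFD2* at 1.08 (0.869 to 1.34). The 14 genes of the DNA methylation machinery were at 1.08 (0.985 to 1.19). *DNMT1*, the maintenance methyltransferase that DAC traps, was at 1.15 (0.985 to 1.33), *MBD2*, a reader of methylated DNA, at 0.736 (0.519 to 1.02), and *UHRF1*, which brings *DNMT1* to new DNA, at 1.21 (0.862 to 1.66). The 9 genes of mesenchymal transition were at 1.04 (0.951 to 1.14), with *VIM*, which encodes vimentin, at 0.941 (0.844 to 1.05), and with 5.89 UMIs per SFRP1-zero cell against 0.245 per mock-treated cell for the list. DAC-treated cells thus shared the rise of this list whether or not they had *SFRP1*.

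Over all tested genes, those with the highest ratios were again led by X-linked germline genes. After *VCX3B* and *VCX3A* came *MAGEA6* (2.45, 1.68 to 3.47), *PARP16*, an enzyme of the endoplasmic reticulum (2.38, 1.64 to 3.37), the galactosyltransferase gene *B4GALT1* (2.38, 1.61 to 3.42), *PAGE1* (2.35, 1.88 to 2.92), and *CITED4*, a transcriptional coactivator (2.32, 1.63 to 3.23). *GAGE2A* (2.27, 1.91 to 2.69), *PAGE5* (2.16, 1.59 to 2.89), and *GLRX*, which encodes glutaredoxin (2.15, 1.66 to 2.74), completed the 10. A ratio on so few UMIs depends on the draw and on single cells. *PARP16* was detected in 11.25% of SFRP1-positive cells and 12.3% of SFRP1-zero cells. Without the SFRP1-positive cell with the most UMIs of the gene, *PARP16* was at 1.84 and *GLRX* at 1.56. Without thinning, *PARP16* was at 2.26 and *GAGE2A* at 2.06, but *B4GALT1* was at 1.39 and *CITED4* at 1.70.

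Genes with the lowest ratios were less stable. *EREG*, which encodes the growth factor epiregulin, had 0.475 UMI per SFRP1-positive cell and 1.16 per SFRP1-zero cell (0.410, 0.289 to 0.566), and 0.566 without thinning. *DDIT3*, which encodes the stress factor CHOP, was at 0.434 (0.229 to 0.751) and 0.534 without thinning, *ALPG*, a germ cell alkaline phosphatase gene, at 0.393 (0.156 to 0.822) and 0.371, and *TNS4* at 0.462 (0.219 to 0.862) and 0.662. *EREG* and *DDIT3* had fewer UMIs per cell in both DAC-treated groups than in mock-treated cells, which had 5.60 and 1.47. The others named by the rule, *CENPU* (0.350), *JADE1* (0.371), *DAAM1* (0.385), *CDS2* (0.426), *TAF13* (0.449), and *ESPN* (0.463), were between 0.719 and 1.01 without thinning. Of the 263 higher genes, 64 were past the limit without thinning and 79 in a second draw, and of the 104 lower genes, 7 and 17 were. Most single-gene calls therefore did not recur in another draw. The split into higher and lower genes also changed with the scale. Beside the fold from the median gene given above, it was 94 and 207 per non-mitochondrial UMI, 149 and 125 without cells over 50% mitochondrial UMIs, and 55 and 9 with all UMIs scaled to the total, against 263 and 104.

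Genes near *SFRP1* on chromosome 8 were examined as well. Nearly all of those with enough UMIs to compare were expressed in mock-treated cells too, so whether reactivation extended beyond *SFRP1* was not tested by them. Of 23 listed genes within 1000000 bases, 9 had no UMI in either group and 8 had 20 or more. Summed over the 23 genes, the ratio was 1.21 (1.00 to 1.46). *GOLGA7*, the nearest of the 8, 178727 bases away, had a ratio of 1.24 (0.772 to 1.90), and the replication gene *GINS4* was at 1.03 (0.590 to 1.69), the lipid enzyme gene *GPAT4* at 0.912 (0.549 to 1.43), *AP3M2* at 1.21 (0.664 to 2.06), *PLAT* at 1.09 (0.285 to 2.96), and the NF-κB kinase gene *IKBKB* at 1.13 (0.590 to 1.99). *ANK1* (2.26, 0.571 to 6.59), with 4 UMIs in SFRP1-positive cells, and the histone acetyltransferase gene *KAT6A* (1.82, 1.16 to 2.75) had the highest ratios of the 8 but averaged too few UMIs to be counted as higher, and *KAT6A* was at 1.04 without thinning. The transcript of *SFRP1* overlaps a microRNA gene and a long non-coding RNA on the same strand, so its count may include reads of the latter.

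To see what choosing cells by 1 rare transcript gives in general, the same comparison was made with *FBLN2*, an extracellular matrix gene, and *IFI44*, an interferon-stimulated gene, which had 354 and 351 UMIs in the DAC-treated library. The result differed by the gene chosen. With 2 or more UMIs of *FBLN2* there were 69 cells, and reactivated genes were at 1.05 (1.02 to 1.09) against 1042 cells without *FBLN2*, X-linked ones at 1.00 (0.926 to 1.08), and the median gene at 1.02. With 2 or more UMIs of *IFI44* there were 71 cells, and reactivated genes were at 1.23 (1.19 to 1.28) against 1098 cells without *IFI44*, X-linked ones at 1.74 (1.64 to 1.84), and the median gene at 1.09. A median of 25 reactivated genes was detected in FBLN2-positive cells and 27 in IFI44-positive cells, against 30 in SFRP1-positive cells. In each of the 3 groups without the chosen gene the median was 23. The other interferon-stimulated genes were at 0.937 (0.899 to 0.976) in FBLN2-positive cells and at 2.86 (2.78 to 2.94) in IFI44-positive cells, against 1.24 in SFRP1-positive cells. A high ratio of X-linked germline genes was thus found with *SFRP1* and *IFI44* and not with *FBLN2*.

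The 3 choices shared cells and controls, so their values are given side by side and no difference between them was tested. Of the FBLN2-positive cells 8, and of the IFI44-positive cells 6, were also SFRP1-positive. The share of genes higher was 3.02% with *FBLN2* and 6.04% with *IFI44*, and that of genes lower was 3.06% and 2.03%. Median total UMIs were 55614 and 51432 in the FBLN2- and IFI44-positive cells, both deeper than the SFRP1-positive cells, and the median mitochondrial share was 19.3% in both. WNT targets were at 1.14 (1.08 to 1.20) with *FBLN2* and at 1.07 (1.02 to 1.13) with *IFI44*, values like the 1.08 of SFRP1-positive cells, and G2/M genes were at 1.09 and 1.03.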

How the data were processed

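The deposited values were UMI counts per gene and cell, which the authors made with Cell Ranger against hg38 according to the submitters' processing notes, and all 3534 cells of the 2 libraries were used as deposited. The members and gene lists were chosen with earlier results of these data known. Cells with fewer than 10000 UMIs were left out of the comparison, and 10000 UMIs were drawn without replacement from each other cell (seed 11, second draw with seed 12). SFRP1 was left out of every sum. Ratios were those of summed UMIs per cell, and values without thinning scaled each cell to 10000 UMIs. Named genes were those with UMIs on the lists of secreted WNT antagonists and WNT targets (the most abundant, the others as counts), the 10 highest and 10 lowest ratios among tested genes, the 8 highest and 8 lowest among reactivated genes with that mean or 20 UMIs over both groups, the 3 most abundant genes of every other list by UMIs over both groups, and neighbors within 1000000 bases with 20 or more UMIs. Genes, families, and the split by chromosome chosen after their values had been seen are marked so. Positions came from GENCODE release 44, whose use by the authors was not stated, and promoters from the RefSeq table. Doublets were not removed. Python 3.11.15 was used with numpy 2.4.6, scipy 1.17.1, pandas 2.3.3, and matplotlib 3.10.9.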

Additional observations from a re-analysis of the deposited data

How the results depend on the processing

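Of 193 values under alternative choices, 125 kept their size, 65 moved, and 3 reversed, counted only where the interval of the original value excluded 1. These were the ratio of WNT targets, at 0.985 when scaled to non-mitochondrial UMIs and 0.994 without cells over 50% mitochondrial UMIs, and that of antagonists, at 0.913 without DKK1 and NOTUM, alternatives that were chosen after the data had been seen. The S-phase ratio, whose interval included 1, fell below 1 under 4 alternatives given here. Drawing 5000 UMIs gave ratios of 1.21 for antagonists, 1.13 for S-phase genes, and 1.21 for G2/M genes, with 574 genes higher and 291 lower, and drawing 20000 gave 1.03 for WNT targets and 1.08 for G2/M genes, with 96 higher and 51 lower. All UMIs scaled to the total gave a difference of 17 reactivated genes detected, 1.08 for G2/M genes, 55 genes higher, and 9 lower. With 1 SFRP1 UMI or more there were 216 cells, of which 206 had enough UMIs in total to enter the comparison. In these 206 cells, reactivated genes were at 1.25 with a difference of 4 genes detected, G2/M genes at 1.11, and 56 genes were higher and 20 lower. With 3 or more there were 45 cells, antagonists were at 1.64, reactivated genes at 1.31 with a difference of 4, G2/M genes at 1.19, and 434 genes were higher and 271 lower. Weighting by depth gave 0.977 for S-phase and 1.06 for G2/M genes. Without cells over 20% mitochondrial UMIs, reactivated genes were at 1.24, S-phase genes at 0.960, and G2/M genes at 1.12, and 281 genes were lower. The top 100 reactivated genes gave a difference of 4. A mean of 0.05 UMI gave 987 genes higher and 800 lower, a mean of 1 UMI 10 and 1, and a fold of 2 gave 18 and 16. Chosen after the data had been seen as well, WNT targets without *CCND1* were at 1.18 and antagonists without DKK1 at 1.11, no thinning gave 87 genes higher and 8 lower, and the fold taken from the median gene gave 98 and 207. The non-mitochondrial scale gave reactivated genes at 1.27, S-phase genes at 0.936, G2/M genes at 1.05, 94 genes higher, and 207 lower. Leaving out cells over 50% mitochondrial UMIs gave 1.31, 0.938, and 1.05 for the same lists and 149 genes higher. Leaving out each SFRP1-positive cell in turn brought G2/M genes to 1.12 at the lowest. X-linked reactivated genes moved to 1.49 without cells over 20% mitochondrial UMIs, 1.56 with 1 SFRP1 UMI or more, 1.57 with 3 or more, 1.74 on the non-mitochondrial scale and without cells over 50% mitochondrial UMIs, and 1.76 at the lowest with each cell left out. Autosomal reactivated genes moved to 1.15 with 1 SFRP1 UMI or more, 1.16 without cells over 20% mitochondrial UMIs, 1.17 without those over 50%, and 1.12 on the non-mitochondrial scale. The causes of these shifts were not tested, beyond the smaller mitochondrial share that raises all other genes by construction. Differences between cultures were not tested, since each condition had 1 library, and dropout of SFRP1 leaves expressing cells among the SFRP1-zero cells.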
